A study of Homo sapiens with 8 samples.

Results

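The EGFR family is made up of the receptor tyrosine kinases EGFR, ERBB2, ERBB3 and ERBB4, which pair with each other when a ligand of the EGF type binds. EGFR is bound by HB-EGF, amphiregulin, epiregulin, TGF-alpha and betacellulin, and ERBB3 and ERBB4 by the neuregulins. HB-EGF, epiregulin and betacellulin can also bind ERBB4. ERBB2 has no known ligand of its own and acts as the preferred partner, while ERBB3 has a weak kinase and signals mainly through its partners. The ligands are made as membrane precursors that ADAM proteases cut free, and EGFR is often studied in triple negative breast cancer (TNBC), where ERBB2 is not amplified. The 10 genes described here were chosen by symbol and comprise 4 receptors (EGFR, ERBB2, ERBB3 and ERBB4) and 6 ligands (HBEGF, AREG, EREG, TGFA, NRG1 and BTC). They were found among 23228 genes listed in each library.

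RNA-seq was performed on BT-549, an established TNBC cell line of mesenchymal type, giving 8 libraries in 4 groups of 2. The treatments were vehicle (DMSO), 100 nM of the LIFR inhibitor EC359, 10 µM of the histone deacetylase inhibitor vorinostat (SAHA), and the same doses combined, each for 24 h. The study asked how EC359 alters the response of TNBC cells to HDACi, and the 4 groups allow each drug to be compared with vehicle and with the combination. The methods of the study say in general terms that cell assays had biological replicates, but neither they nor the labels say which cultures gave these libraries, so p values measure only the spread between these libraries, which may be technical.

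Gene counts per library lay between 19069450 and 24759041, and 13694 genes passed the filter on low counts and were tested. Between both libraries of a treatment, log2 levels differed with an SD across genes of 0.56 for EC359 and 0.31 for vorinostat, the widest and the narrowest of the 4 groups. The 5 mesenchymal markers (VIM, CDH2, FN1, SPARC and ZEB1) were detected in every group, with a summed level between 7511 and 15035 normalized CPM (reads scaled to a common library size, with TMM factors). The sum hides opposite changes. From vehicle to the combination, mean VIM went from 2111 to 9372 CPM and mean SPARC from 3458 to 907. The 6 luminal or epithelial markers (ESR1, PGR, GATA3, FOXA1, EPCAM and CDH1) summed to 1.31 to 1.42 CPM under vehicle, where ESR1 and PGR were at 0. Their sum was 2.23 to 3.17 CPM under EC359, 5.82 to 10.4 under vorinostat and 5.58 to 9.70 under the combination. Calls needed both a log2 fold change beyond 1 in either direction and an adjusted p below 0.01 from the quasi-likelihood test in edgeR, with adjustment over all tested genes. For the interaction of the drugs, which is how far the log2 change with both exceeds the added changes of each alone, the adjusted p decided by itself.

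Of the 10 members 7 passed the filter, namely the 4 receptors and the ligands HBEGF, NRG1 and TGFA. Vorinostat lowered EGFR, ERBB2 and NRG1, raised ERBB3, and no member was called under EC359 alone. When EC359 was added to vorinostat, NRG1 and HBEGF rose, whereas none of the receptors was called. ERBB4 and TGFA passed the filter with few reads, ERBB4 through the groups with vorinostat, and AREG, EREG and BTC were not tested. Against these calls, 16.8% of all tested genes were called higher and 13.3% lower under vorinostat, and 19.5% and 15.3% under the combination against vehicle. The combination against EC359 called 19.8% higher and 13.9% lower, and EC359 against vehicle 1.94% and 1.72%. Adding EC359 to vorinostat called 3.37% higher (462 genes) and 0.876% lower (120 genes), a split of 380 to 182 with total-count scaling, and the interaction called 1.62% higher and 0.482% lower.

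To compare levels between genes, CPM was divided by the length of the canonical transcript in GENCODE. Under vehicle the level per kb was highest for ERBB2 (21.7 ± 0.917 CPM per kb, SD, n = 2) and EGFR (21.3 ± 1.13), whose libraries overlapped. They were followed by NRG1 (18.4 ± 0.101) and HBEGF (14.5 ± 0.00902). ERBB3 (0.155 ± 0.00706), TGFA (0.0797 ± 0.0317) and ERBB4 (0.00969 ± 0.00267) stood far lower. Under EC359 the order was NRG1 (26.2 ± 5.64 CPM per kb), HBEGF (22.8 ± 2.37), EGFR (21.5 ± 5.94) and ERBB2 (17.1 ± 0.633), and each overlapped its neighbour. Under vorinostat HBEGF came first (8.16 ± 0.188 CPM per kb), then EGFR (4.98 ± 0.189), with ERBB2 (3.36 ± 0.169) and NRG1 (3.34 ± 0.281) overlapping, and then ERBB3 (1.87 ± 0.00542). Under the combination the order was HBEGF (25.9 ± 0.834 CPM per kb), NRG1 (15.1 ± 1.67), EGFR (5.54 ± 0.546), ERBB2 (2.70 ± 0.0910) and ERBB3 (2.13 ± 0.170), with no overlap between neighbours. By this length NRG1 and HBEGF stood above every receptor in the combination, and below EGFR and ERBB2 under vehicle. The vehicle order depended on the length used: with all annotated exons of each gene merged, a length chosen after seeing the data, EGFR came first (13.2 ± 0.700 CPM per kb), then HBEGF (11.4 ± 0.00712), NRG1 (10.3 ± 0.0566) and ERBB2 (9.60 ± 0.405). In the combination the merged length kept HBEGF (20.4 ± 0.658 CPM per kb) and NRG1 (8.46 ± 0.934) above EGFR (3.44 ± 0.339).

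EGFR lies on chromosome 7 from 55086710 to 55279321 on the plus strand (GRCh37, the build of hg19). Its CPM was 218 and 203 in the vehicle libraries, 254 and 171 under EC359, 48.0 and 50.6 under vorinostat, and 51.0 and 58.7 under the combination. All libraries with vorinostat were below all libraries without it, and the EC359 libraries spread around those of vehicle. The libraries did not overlap for 88.9% of all tested genes under vorinostat, 86.5% for the combination against vehicle and 79.7% against EC359. Vorinostat lowered EGFR 4.27-fold (log2 fold change -2.09, standard error 0.17, adjusted p = 8.7e-06, edgeR), in a comparison in which 30.1% of all tested genes were called. The combination was 3.84-fold below vehicle (-1.94, standard error 0.17, adjusted p = 1.1e-05), where 34.8% were called. It was 3.88-fold below EC359 (-1.95, adjusted p = 1.1e-05), where 33.7% were called. EC359 alone gave a log2 fold change of 0.01 with a 95% interval from -0.36 to 0.39, and adding it to vorinostat gave 0.15, from -0.24 to 0.54. Without EC359 replicate 1 the first of these was -0.30 and without EC359 replicate 2 it was 0.28.

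ERBB2, the receptor also known as HER2, lies on chromosome 17 from 37844167 to 37886679 on the plus strand. Its gene body overlaps PGAP3 and MIEN1 on the opposite strand, and since no source gives the strand used in counting, reads in the overlaps cannot be assigned with certainty. ERBB2 had 96.1 and 102 CPM under vehicle, 76.1 and 80.2 under EC359, 15.8 and 14.7 under vorinostat, and 12.0 and 12.6 under the combination. The 4 groups did not overlap, and the combination was the lowest. Vorinostat lowered ERBB2 6.48-fold (log2 fold change -2.70, standard error 0.10, adjusted p = 2.2e-07), and the combination lowered it 8.04-fold against vehicle (-3.01, standard error 0.11, adjusted p = 7.1e-08) and 6.34-fold against EC359 (-2.66, adjusted p = 1.6e-07). The change under EC359 was smaller, at -0.34 (95% interval -0.56 to -0.13, adjusted p = 0.040), and so was that on adding EC359 to vorinostat, at -0.31 (-0.55 to -0.07, adjusted p = 0.058). Neither of these passed the threshold, although the libraries did not overlap in either, as was the case for 53.4% and 72.9% of all tested genes.

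ERBB3, the neuregulin receptor that needs a partner to signal, lies on chromosome 12 from 56470583 to 56497289 on the plus strand. It had 0.897 and 0.841 CPM under vehicle and 0.989 and 0.710 under EC359, which were 19, 18, 24 and 14 reads. Under vorinostat it had 10.5 and 10.5 CPM (205 and 247 reads), and under the combination 11.3 and 12.7 (221 and 248 reads). Every library with vorinostat was thus more than 10 CPM, and every library without it was below 1 CPM. Vorinostat raised ERBB3 12.0-fold (log2 fold change 3.59, standard error 0.22, adjusted p = 1.8e-06), and the combination raised it 13.7-fold against vehicle (3.78, standard error 0.22, adjusted p = 9.1e-07). Adding EC359 to vorinostat gave 0.19 (95% interval -0.20 to 0.58, adjusted p = 0.45). The summed luminal markers were also higher in the libraries with vorinostat. Their sum was 5.82 to 10.4 CPM under vorinostat, where ERBB3 had 10.5 in both libraries. The sum was also above vehicle under EC359, where ERBB3 overlapped vehicle. Single markers differed. GATA3 had 0.283 and 0.327 CPM under vehicle and 0.907 and 0.203 under EC359. It had 2.42 and 2.17 under vorinostat and 2.51 and 3.32 under the combination. CDH1 had 0.283 and 0.234 under vehicle, 2.21 and 0.467 under vorinostat, and 0.0512 and 0.715 under the combination. The part of these markers in the ERBB3 result was not tested.

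ERBB4, the other neuregulin receptor, lies on chromosome 2 from 212240442 to 213403565 on the minus strand and was counted in few reads. There were 2 and 3 reads under vehicle, 4 and 0 under EC359, 16 and 19 under vorinostat, and 11 and 19 under the combination. The libraries with vorinostat were again above those without it, and the gene passed the filter through them. Vorinostat gave ERBB4 a log2 difference of 2.74 (standard error 0.80, adjusted p = 0.014) and the combination 2.65 (standard error 0.82, adjusted p = 0.017), and neither was called. The adjusted p of these 2 comparisons passed under 0.01 without EC359 replicate 1 (0.00539 and 0.00679), without EC359 replicate 2 (0.00548 and 0.00691) and in fits on the groups compared (5.7e-04 and 0.00529). Because the gene was tested at all only through its level in the groups with vorinostat, these p values are no support for the difference. The combination against EC359 had an adjusted p of 0.011, and no fold is given without EC359 replicate 1, since the remaining library had 0 reads.

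**Figure D1:**
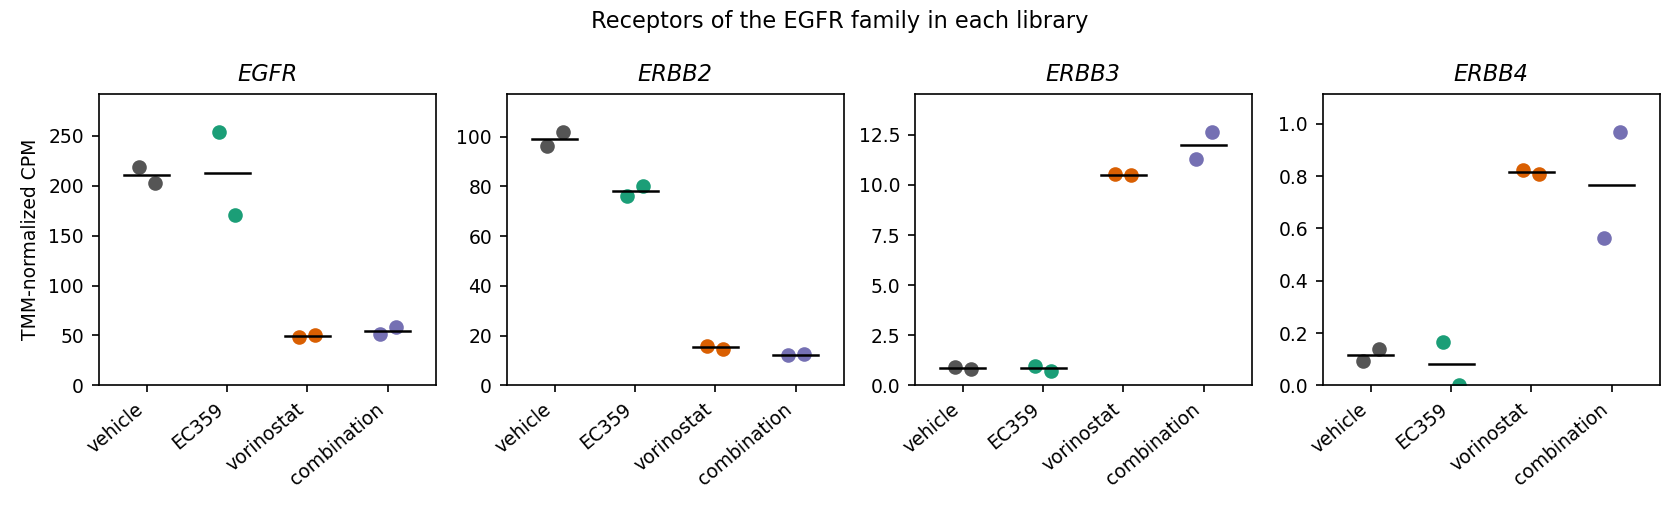
Normalized CPM (y axis, TMM scaled, starting at 0) of each receptor in the 4 treatment groups (x axis), with 1 point per library and a bar at the mean of n = 2. EGFR and ERBB2 were lower and ERBB3 and ERBB4 were higher in the libraries with vorinostat, with a y axis range that differs between panels.

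EGFR and ERBB2 fell while ERBB3 rose, so the shares of the 4 receptors were computed. Their summed level was 43.2 ± 0.215 CPM per kb (SD, n = 2) under vehicle and 38.8 ± 5.36 under EC359, against 10.3 ± 0.0135 under vorinostat and 10.4 ± 0.831 with both drugs. EGFR held 49.2% ± 2.37 of this sum under vehicle and 54.8% ± 7.76 under EC359, with 48.4% ± 1.77 under vorinostat and 53.0% ± 1.01 with both drugs. ERBB2 held 50.4% ± 2.37, 44.8% ± 7.82, 32.7% ± 1.69 and 25.9% ± 1.19 in the same order. ERBB3 held 0.358% ± 0.0146 under vehicle and 0.388% ± 0.0372 under EC359, against 18.2% ± 0.0768 under vorinostat and 20.5% ± 0.00457 under the combination. ERBB4 stayed at or below 0.727% in every library. The EGFR share therefore overlapped between vehicle and vorinostat, while the ERBB2 share was lower and the ERBB3 share higher in every library with vorinostat. With merged exons EGFR held 57.7% under vehicle and 55.9% under vorinostat, ERBB2 41.9% and 26.8%, and ERBB3 0.324% and 16.2%. ERBB4 then held 0.0394% and 1.13%, so its bound of 0.727% holds for the canonical length only. The near equal shares of EGFR and ERBB2 under vehicle rest on the canonical length too.

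**Figure D2:**
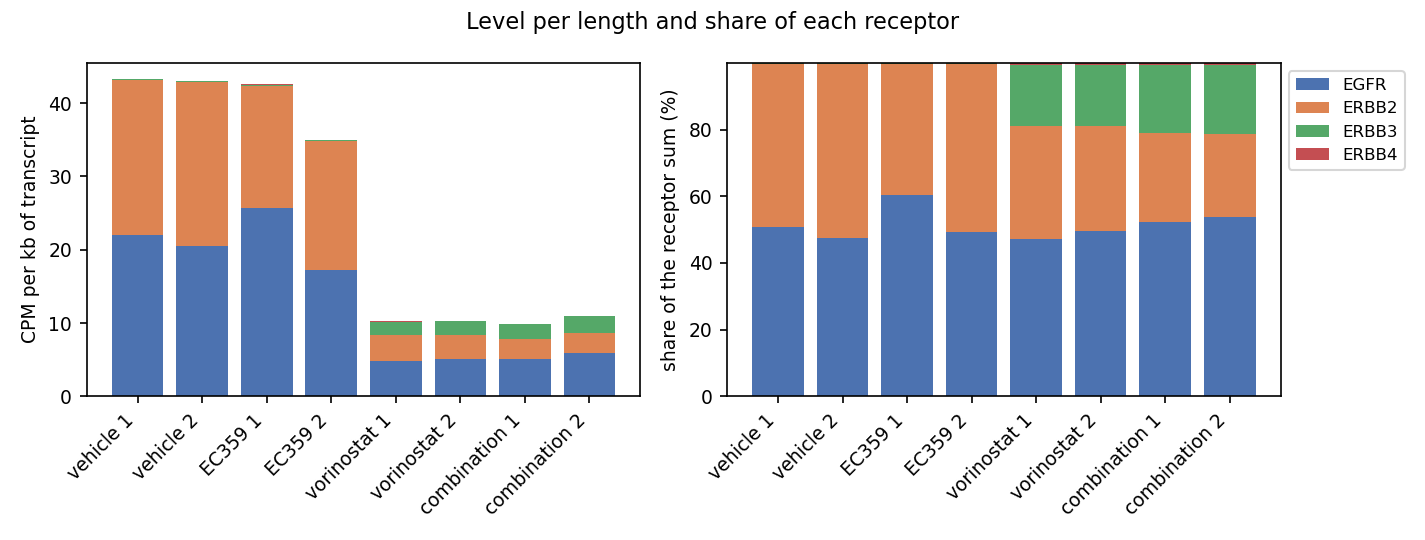
Level per length of the 4 receptors in each of the 8 libraries, stacked as CPM per kb of canonical transcript (left) and as a share of their sum in percent (right). The sum is near 43 CPM per kb under vehicle and near 10 with vorinostat, where ERBB3 (green) takes about 18% to 20% of it, and ERBB4 (red) is at most a thin band.

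NRG1, the neuregulin that binds ERBB3 and ERBB4, lies on chromosome 8 from 31496738 to 32713184 on the plus strand and is annotated with 35 transcripts, which the gene counts do not separate. It had 222 and 220 CPM under vehicle, 362 and 267 under EC359, 42.4 and 37.7 under vorinostat, and 167 and 195 under the combination. The 4 groups did not overlap, vorinostat alone was the lowest, and the combination lay between vorinostat and vehicle. In the pairs of groups compared, libraries did not overlap for 53.4% to 88.9% of all tested genes, and no share was computed for all 4 groups at once. Vorinostat lowered NRG1 5.52-fold (log2 fold change -2.46, standard error 0.16, adjusted p = 1.9e-06). When EC359 was present with vorinostat, NRG1 was 4.52-fold higher than under vorinostat alone (2.18, standard error 0.16, adjusted p = 2.7e-05), in a comparison in which 4.25% of all tested genes were called. Against vehicle the combination differed by -0.29 (95% interval -0.62 to 0.04, adjusted p = 0.11), and against EC359 by -0.80 (standard error 0.15, adjusted p = 0.0011), which is under the fold threshold. Without EC359 replicate 2 this last value was -1.02, and it was called. EC359 without vorinostat gave 0.51 (standard error 0.15, adjusted p = 0.044), and 3.67% of all tested genes were called in that comparison.

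HBEGF encodes HB-EGF, a ligand of EGFR and ERBB4, and lies on chromosome 5 from 139712428 to 139726188 on the minus strand. Its CPM was 34.1 and 34.1 under vehicle, 57.7 and 49.8 under EC359, 18.9 and 19.5 under vorinostat, and 59.6 and 62.4 under the combination. The vorinostat libraries were the lowest, and the libraries with EC359 were the highest whether or not vorinostat was present. HBEGF rose 3.17-fold when EC359 was added to vorinostat (log2 fold change 1.66, standard error 0.11, adjusted p = 2.2e-05). Its other differences from vehicle passed the adjusted p but not the fold threshold, at 0.66 under EC359 (adjusted p = 0.0036), -0.83 under vorinostat (adjusted p = 1.8e-04) and 0.84 under the combination (adjusted p = 1.1e-04). The combination and EC359 alone differed by 0.18 (95% interval -0.06 to 0.42, adjusted p = 0.16).

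The interaction of the drugs was called for NRG1 and HBEGF and for none of the 4 receptors, and 2.1% of all tested genes had an interaction. For NRG1 it was 1.66 on the log2 scale (standard error 0.21, adjusted p = 0.0026), and for HBEGF 1.01 (standard error 0.15, adjusted p = 0.0065). For EGFR it was 0.14 (95% interval -0.40 to 0.68), for ERBB2 0.03 (-0.29 to 0.36) and for ERBB3 0.20 (-0.56 to 0.96). For ERBB4 it was 0.28 (-2.56 to 3.12), an interval that holds both ligand values, so ERBB4 cannot be set apart from them. Among the receptors, 0 had an interaction at an unadjusted p under 0.05 in edgeR and 0 were called in DESeq2. Both ligand interactions were called without either EC359 library, but not without any other single library. Without either library of vehicle, vorinostat or the combination, the adjusted p rose to between 0.0195 and 0.0302 for NRG1 and between 0.0389 and 0.0754 for HBEGF, while the interactions themselves stayed between 1.49 and 1.72 and between 0.91 and 1.00. Blocking on replicate number gave an adjusted p of 0.00504 for NRG1 and 0.0147 for HBEGF. LIFR, the target of EC359, itself had an interaction of 1.29 (standard error 0.17, adjusted p = 0.0035), which was called in 2 of the 8 fits with a library left out, those without an EC359 library.

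**Figure D3:**
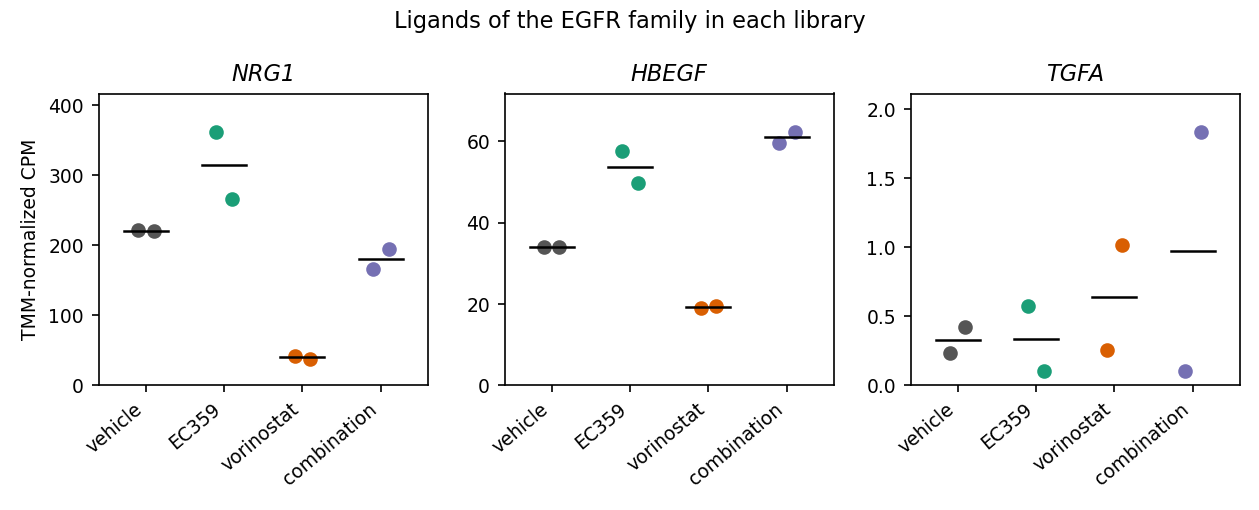
Normalized CPM (y axis, TMM scaled, starting at 0) of NRG1, HBEGF and TGFA in the 4 treatment groups (x axis), with 1 point per library and a bar at the mean of n = 2. NRG1 and HBEGF are lowest under vorinostat alone and higher with both drugs, and the libraries of TGFA disagree within groups.

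The 250 bases before the start of EGFR and HBEGF are shown because adding EC359 to vorinostat called HBEGF, the ligand, and not EGFR, its receptor. They came from RefSeq on GRCh38.p14, with matches to the motifs in capitals, and each matched GRCh37 once. The EGFR window is chr7:55086460-55086709 on the plus strand and the HBEGF window chr5:139726189-139726438 on the minus strand.
EGFR: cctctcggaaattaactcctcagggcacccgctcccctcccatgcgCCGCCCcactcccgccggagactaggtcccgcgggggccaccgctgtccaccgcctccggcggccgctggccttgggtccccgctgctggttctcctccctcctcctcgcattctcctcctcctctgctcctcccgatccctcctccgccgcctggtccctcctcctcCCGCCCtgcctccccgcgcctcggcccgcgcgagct
HBEGF: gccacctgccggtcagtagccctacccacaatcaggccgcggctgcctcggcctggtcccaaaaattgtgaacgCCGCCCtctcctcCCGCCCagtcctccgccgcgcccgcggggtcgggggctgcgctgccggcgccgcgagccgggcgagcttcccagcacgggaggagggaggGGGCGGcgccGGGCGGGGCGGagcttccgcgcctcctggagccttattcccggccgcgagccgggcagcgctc
The GC box (GGGCGG or, on the other strand, CCGCCC) matched at 2 positions before EGFR and at 5 before HBEGF, 2 of which overlap by 1 base, and in 42.6% of 35116 promoter windows of the same length. The windows were 73.6% and 76.4% G or C, against a median of 58.0% over all windows. Neither held an AP-1 site (TGACTCA or TGAGTCA, 4.20% of all windows), a CRE (TGACGTCA, 1.65%), a TATA box (TATAAA or TTTATA, 10.7%) or a STAT site (TTCNNNGAA, 6.57%). Of the other members, AREG, EREG, TGFA, BTC, ERBB2 and ERBB4 had an entry in the table, and ERBB3 and NRG1 had none.

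TGFA, a ligand of EGFR, lies on chromosome 2 from 70674416 to 70781325 on the minus strand and varied more within groups than between them. It had 5 and 9 reads under vehicle, 14 and 2 under EC359, 5 and 24 under vorinostat, and 2 and 36 under the combination. The combination held both the highest library and, with EC359 replicate 2, one of the pair with fewest reads, and the groups overlapped in every comparison. The log2 difference between the combination libraries was 3.29, against an SD of 0.45 over all tested genes in that group. No comparison of TGFA was called, with adjusted p values from 0.26 to 0.97. Its direction against vehicle under the combination turned from 1.55 to -1.68 without combination replicate 2.

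EREG, which encodes epiregulin, was counted only in the combination, with 4 and 5 reads against 0 in the other 6 libraries. For a count of 0 in both libraries of a group a floor of 3 reads was set, or 0.0704 CPM under vehicle. The summed combination level, with its 9 reads taken as counted, was 3.27-fold this floor, and the difference was not tested. The gene lies on chromosome 4 from 75230862 to 75254466 on the plus strand, and the 95% Poisson interval of its 9 reads, which covers counting error only, was 4.12 to 17.1. At the lower end of that interval the ratio to the vehicle floor was 1.49. BTC, betacellulin, lies on chromosome 4 from 75669969 to 75719733 on the minus strand and had 1 read in all, in combination replicate 2.

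AREG, which encodes amphiregulin, had 2 reads in vorinostat replicate 1 and 0 in the other libraries, and this count could not show its level. The gene lies on chromosome 4 from 75310853 to 75320722 on GRCh37, which holds another copy of it between 75480629 and 75490481. Of 940 windows of 50 bases, the read length, within the exons of its canonical transcript, 908 (96.6%) occurred more than once on chromosome 4. This was so for 1.35% of the windows of EREG and 0% of those of BTC. Reads aligned to more than 1 place were set aside by the counting and made up 29.1% to 31.8% of the entries in each library. A window from coding exon 2 of AREG, shown because such a read would be set aside, lies at chr4:75312251-75312300 and again at chr4:75482006-75482055, both on the plus strand.
AREG window: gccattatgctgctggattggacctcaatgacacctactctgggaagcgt

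**Figure D4:**
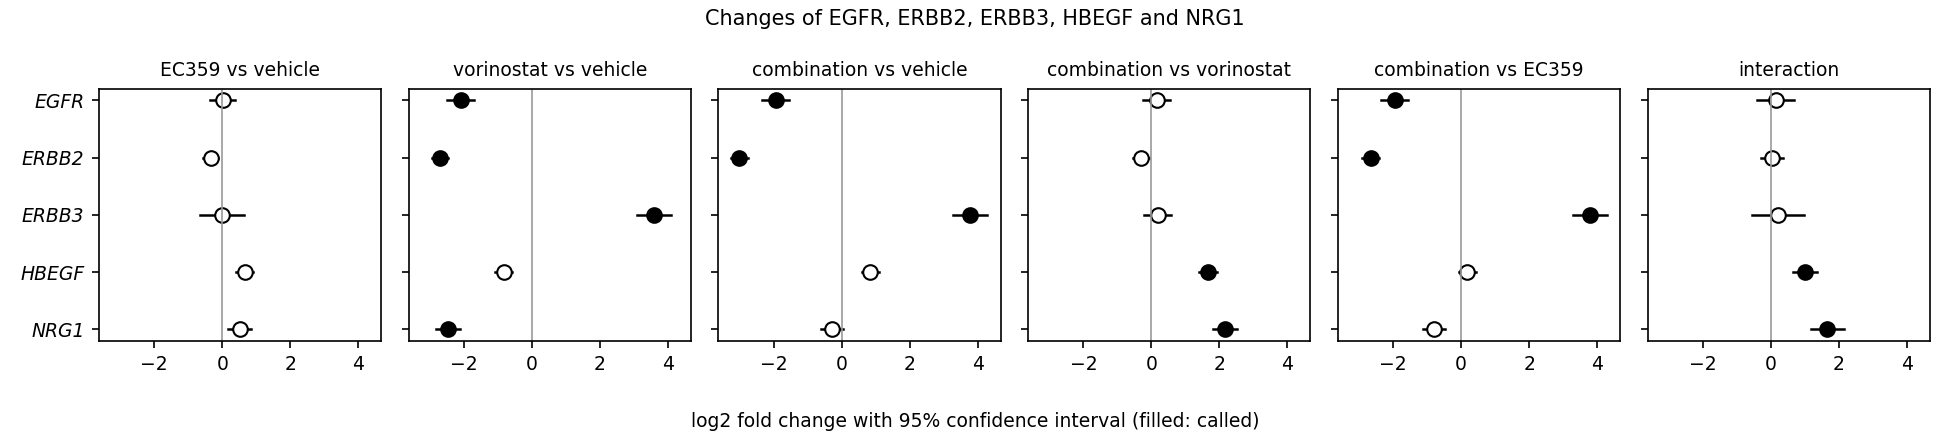
Log2 fold change (x axis) with its 95% confidence interval for the 5 members with most reads (y axis) in each comparison and for the interaction, from edgeR's quasi-likelihood fit on 8 libraries. Filled points were called, and the ligands alone are filled when EC359 is added to vorinostat and in the interaction.

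Beside a count of 0 members called under EC359 alone, 3 of the 7 tested had an unadjusted p under 0.05 in edgeR (ERBB2, NRG1 and HBEGF), and DESeq2 also called 0. The share of all tested genes under that unadjusted p is not given here, so the 3 are no evidence of a response of the members. Over the 7 tested members the median log2 fold change was 0.01 for EC359, -0.83 for vorinostat, 0.84 for the combination and 0.19 on adding EC359 to vorinostat. Over all tested genes these medians were -0.02, 0.03, 0.07 and -0.01. The member medians for vorinostat and the combination are the values of HBEGF alone. The 7 include ERBB4, which passed the filter only through the groups with vorinostat. The member medians are therefore no support for a shift of the family. Since the comparisons with vehicle share its libraries, the values of a member in them are not independent of each other. The RNA came from bulk cultures, in which fewer expressing cells and less RNA per cell cannot be told apart.

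The genes whose profile over the 8 libraries lay nearest to each member were found by the root mean square difference of centred log2 CPM. For EGFR these were TPM4 (0.09), MX2 (0.10) and RPRD2 (0.11), where the median over all tested genes was 1.09. For ERBB2 they were PRKAR1B (0.11), ZFX (0.11) and INPPL1 (0.12), against a median of 1.41. For HBEGF they were ICAM1 (0.09), CD44 (0.10) and STK35 (0.16), against a median of 0.83. ICAM1 had 19.3 and 17.2 CPM under vehicle, 28.9 and 24.4 under EC359, 10.1 and 9.77 under vorinostat, and 27.9 and 29.2 under the combination, so that vorinostat was the lowest, vehicle came next, and EC359 and the combination overlapped. NRG1 had more distant neighbours, HOXB2 (0.22), CYB5R2 (0.32) and EPHA2 (0.32), against a median of 1.21. For ERBB3 they were VGLL2 (0.17), EXOC3L1 (0.19) and BCO2 (0.19), of which the first and the second were at 0 in every library without vorinostat. The nearest genes to ERBB4 were TP63 (0.21), GNRHR2 (0.23) and B4GALNT3 (0.24). TGFA had more distant neighbours than the other members, among them ANXA3 at 0.62 and ALDH3A1 at 0.62, and ALDH3A1 also differed within the combination (6 and 30 reads) and within vorinostat (3 and 16 reads).

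Among 5 further ligands (EGF, EPGN, NRG2, NRG3 and NRG4) NRG2 alone was tested. NRG2, another neuregulin, had 0.0939 ± 6.98e-04 CPM under vehicle and 0.0254 ± 0.0359 under EC359, against 2.30 ± 0.671 under vorinostat and 2.12 ± 1.48 with both drugs (SD, n = 2). It had 2 reads in each vehicle library and 0 and 1 under EC359, so it passed the filter only through the groups with vorinostat (54, 43, 62 and 21 reads), and its calls there are no support for a difference. Those against vehicle (adjusted p = 8.5e-04 and 9.4e-04) were lost without either vehicle library, where the adjusted p reached 0.0112 and 0.0118. Of 12 genes that release the ligands or regulate their release, 10 were tested. Under EC359 1 of these was called, against 3.67% of all tested genes, ADAM19, a protease of neuregulins, which rose by 2.39 (adjusted p = 3.0e-06). It had 27.1 and 26.7 CPM under vehicle and 152 and 131 under EC359, but 20.8 and 21.6 under the combination, an interaction of -2.65 (adjusted p = 7.0e-05). Under vorinostat 2 were higher and 2 lower, against 16.8% and 13.3% of all tested genes, the furthest being the proteases ADAM15 (1.37, adjusted p = 1.7e-04) and ADAM12 (-1.34, adjusted p = 6.4e-06). Under the combination 1 was higher and 2 were lower against vehicle, where 34.8% of all tested genes were called, with ADAM9 at -1.58 (adjusted p = 2.2e-06) and ADAM12 at -1.24 (adjusted p = 7.7e-06). The higher one, FRMD8, which binds the iRhom partners of ADAM17, was at 1.11 and fell under the fold threshold without vehicle replicate 1 (0.96). Adding EC359 to vorinostat called 0 of the 10 in edgeR, against 4.25% of all tested genes, and 0 in DESeq2. An unadjusted p under 0.05 was found for 6 of the 10, and the share of all tested genes under it is not given here. ADAM17, the main protease for HB-EGF and TGF-alpha, is named here after its values were seen. In edgeR it was at 0.59 under EC359 (adjusted p = 0.0032), 0.22 under vorinostat (adjusted p = 0.064) and 0.75 under the combination (adjusted p = 9.6e-05). Adding EC359 to vorinostat gave 0.53 (adjusted p = 0.0039), below the fold threshold. It was the 1 gene of the 10 with an adjusted p under 0.01 in that comparison.

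All 12 genes listed for restraint of the receptors were tested. Under EC359 1 was higher and 1 lower (3.67% of all tested genes were called), under vorinostat 3 and 1 (30.1%), and under the combination 3 and 2 (34.8%), so with vorinostat the share of the list called was near that of all genes. ERRFI1, also known as MIG6, which binds and inhibits the kinase of EGFR, had 262 and 250 CPM under vehicle, 579 and 530 under EC359, 1716 and 1694 under vorinostat, and 3347 and 3218 under the combination. None of the 4 groups overlapped, where 53.4% to 88.9% of all tested genes did not overlap in the pairs of groups compared. ERRFI1 rose by 1.12 under EC359 (adjusted p = 2.8e-05), 2.74 under vorinostat (adjusted p = 9.3e-08) and 3.68 under the combination (adjusted p = 1.3e-08), while EGFR fell in the latter pair. LRIG3 is of a family in which LRIG1 promotes the loss of these receptors, and the effect of LRIG3 itself on them was not tested. It fell by 1.45 under EC359 (adjusted p = 3.6e-04), by 2.15 under vorinostat (adjusted p = 5.4e-06) and by 1.68 under the combination (adjusted p = 1.7e-05), with an interaction of 1.92 (adjusted p = 0.0019). PTPN1, a tyrosine phosphatase that acts on EGFR, rose by 2.33 under the combination (adjusted p = 8.2e-08). PTPRJ, a receptor phosphatase, was the 1 gene of the list called when EC359 was added to vorinostat, at -1.30 (adjusted p = 4.4e-05). Over all tested genes 4.25% were called in that comparison. The interaction of PTPRJ was -0.95 (adjusted p = 0.0055), and 2.1% of all tested genes had an interaction. With a library left out, the interaction of LRIG3 was not called without either library of vehicle or vorinostat (adjusted p up to 0.0273). That of PTPRJ was called only without an EC359 library, in 2 of 8 fits (adjusted p up to 0.048).

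All 18 adaptors and members of the RAS-ERK cascade were tested. Under EC359 1 was called (against 3.67% of all tested genes), under vorinostat 3 (30.1%) and under the combination 4 (34.8%). GAB2, a docking protein for PI3K and SHP2, rose by 1.54 under EC359 (adjusted p = 0.0054), 3.23 under vorinostat (adjusted p = 6.2e-06) and 3.53 under the combination (adjusted p = 2.6e-06), from 1.01 ± 0.158 CPM under vehicle. Its call under EC359 held in 1 of 8 fits with a library left out, that without EC359 replicate 2, and its adjusted p was up to 0.059 in the others. The calls of GAB2 under vorinostat and the combination held in all 8. GRB2, the adaptor that links the receptors to SOS, rose by 1.10 under vorinostat (adjusted p = 6.0e-06). SOS2, an activator of RAS, was lower in the combination than under EC359 (-1.39, adjusted p = 1.0e-04). SHC1 was the 1 gene of the list with an interaction, at -0.77 (adjusted p = 0.0046), and it was called only without an EC359 library when 1 was left out (2 of 8 fits, adjusted p up to 0.0445). Over all tested genes 2.1% had an interaction. Adding EC359 to vorinostat called 0 of the 18 in edgeR, against 4.25% of all tested genes, and 0 in DESeq2. An unadjusted p under 0.05 was found for 5 of the 18, and the share of all tested genes under it is not given here.

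**Figure D5:**
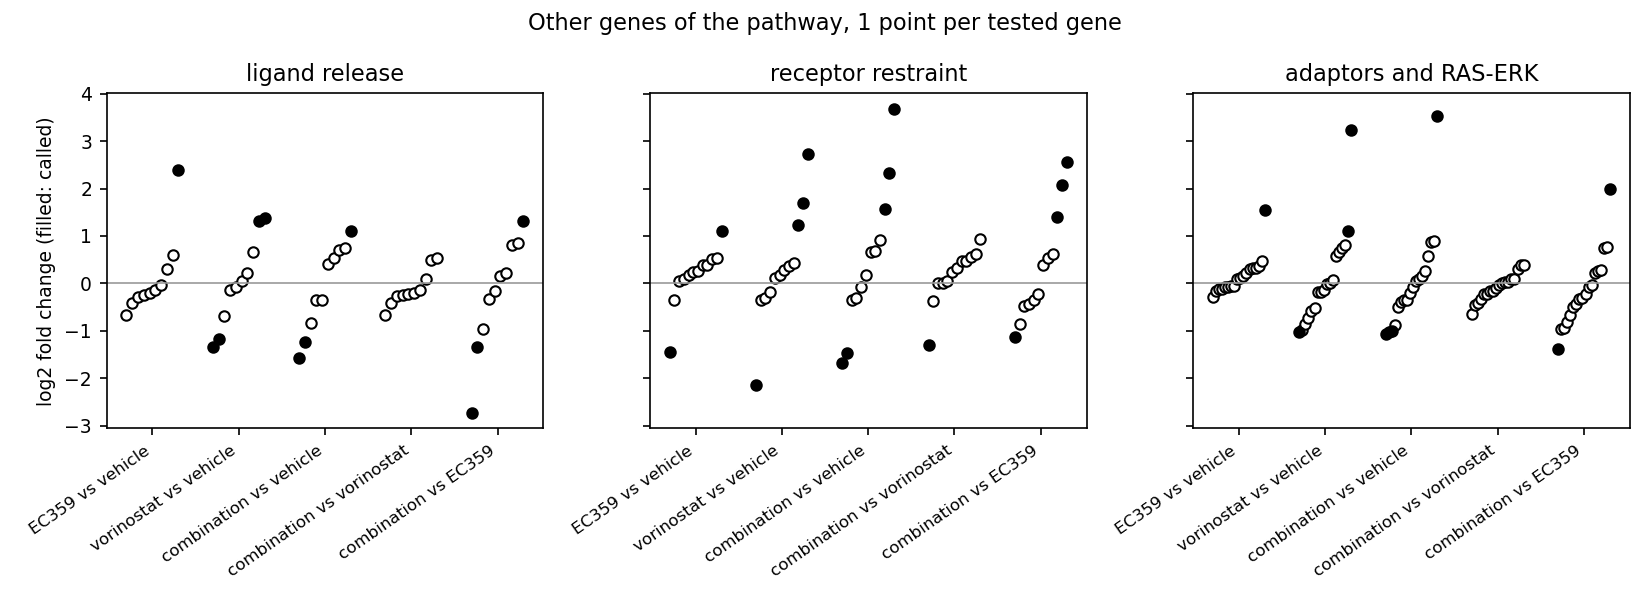
Log2 fold change (y axis) of the other genes of the pathway in each of 5 comparisons (x axis), for 10 genes of ligand release, 12 of receptor restraint and 18 adaptors and RAS-ERK genes, with 1 point per tested gene, ordered by value. Filled points were called, and the highest points of the receptor restraint panel under vorinostat and the combination are ERRFI1.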

How the data were processed

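RNA-seq of BT-549 cells was analysed in 8 libraries. Per the labels and the methods of the study, the authors sequenced single 50-base reads, mapped these to hg19 by TopHat2 (2.0.8b in the submitters' processing notes) and used HTSeq to count RefSeq genes. The version and strand setting of HTSeq are not given in the sources used here. The deposited values are raw read counts per gene. The 5 summary lines of HTSeq were left out (reads on no gene were 11.0% to 14.2% and ambiguous reads 0.649% to 0.850% of the unique alignments).

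Low genes were dropped with the default filterByExpr (edgeR 4.0.16, R 4.3.3), libraries were scaled by TMM, and group means were fitted by quasi-likelihood. Benjamini-Hochberg adjustment covered the 13694 genes kept. Standard errors were derived from each log2 fold change and its F statistic. Groups came from the labels. The procedure was tested on simulated data. Alternatives were RLE and total-count scaling, other filters, DESeq2 1.42.0, a replicate block, fits on the groups compared, other thresholds and leaving out each library. Members, gene lists and tests were chosen with earlier results of these data known. The named genes are the members, LIFR, the 3 nearest profiles per member and, per list and comparison, the 2 called genes with the largest change, of which some are not reported here. Coordinates and lengths came from GENCODE on GRCh37 and figures from Python 3.11.15.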

Additional observations from a re-analysis of the deposited data

Results flagged for a closer look

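The effect of EC359 differed between cells with and without vorinostat for 2 members, by the test of the interaction itself in edgeR. For NRG1 the interaction was 1.66 on the log2 scale (adjusted p = 0.0026), since EC359 gave 0.51 without vorinostat and 2.18 with it. For HBEGF it was 1.01 (adjusted p = 0.0065), since EC359 gave 0.66 without vorinostat and 1.66 with it. In both genes both libraries of the combination were above both libraries of vorinostat. The libraries of these groups did not overlap for 72.9% of all tested genes, so this separation is common and does not bear on the interaction. Neither interaction was called when a library of vehicle, vorinostat or the combination was left out.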

How the results depend on the processing

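Of 655 log2 fold changes of members under the alternatives, 596 kept their direction and their side of the threshold. The replicate numbers do not pair the libraries by any label, and libraries that share a number deviated from their groups with correlations between -0.17 and 0.23 over genes. With the replicate block 1 member (NRG1) had an interaction in place of 2, with 189 interactions over all genes in place of 288, and no other call on a member changed. A crossed block, added after seeing the data, gave 477 interactions. DESeq2 gave 714 interactions, and an adjusted p under 0.05 gave 925. Without the fold threshold 1 member (HBEGF) was called under EC359, and the genes called of all tested were 1071 under EC359 against vehicle, 7130 under vorinostat, 7718 under the combination, 1877 on adding EC359 to vorinostat and 7642 on adding vorinostat to EC359, in place of 502, 4123, 4763, 582 and 4620. A fit on the libraries of vehicle and EC359 alone called 233.

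With a library left out the lone library of its group was assumed to vary like the other groups. The genes called then numbered 298 to 924 under EC359 against vehicle, 285 to 730 on adding EC359 to vorinostat and 56 to 1437 for the interaction, with fewer samples in each fit. The members with an interaction numbered 0 to 2.

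Directions turned only for values that were not called. For EGFR under EC359 the value was -0.00661 with total counts and -0.00213 with the crossed block, and -0.30 to 0.28 with a library left out. For ERBB3 under EC359 it was 0.00587 without a filter, 0.00284 in the fit on 2 groups and -0.28 to 0.20 with a library left out. For TGFA under EC359 it was -0.0203 with the crossed block. The interaction of ERBB2 was -0.0158 with RLE scaling, -0.0440 with total counts, -0.0303 without a filter, -0.0155 in DESeq2 and -0.0755 to 0.0668 with a library left out. With a library left out, ERBB4 ranged from -4.35 to 0.48 under EC359, from -0.57 to 0.21 on adding EC359 to vorinostat and from -0.57 to 4.27 for the interaction. TGFA then ranged from -1.63 to 0.81 under EC359, from -0.36 to 1.61 under vorinostat, from -1.68 to 2.42 under the combination, from -2.65 to 1.86 on adding EC359 to vorinostat, from -1.80 to 3.17 on adding vorinostat to EC359 and from -2.77 to 2.20 for the interaction. The interaction then ranged from -0.13 to 0.45 for EGFR and from -0.00671 to 0.47 for ERBB3. The cause of these turns was not tested. ERBB4, TGFA, EREG, BTC and AREG are limited by depth, and AREG also by its copy.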
